A study of Homo sapiens with 4 samples.

Results

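The 38 promoters described here belong to the zinc finger genes of chromosome band 19p13.2, taken as the rows whose RefSeq symbol is on a list of 38 named genes from the zinc finger clusters of that band. The list uses no measured value, and other ZNF symbols of the region that it leaves out, such as ZNF441 and ZNF823, are counted here with the other rows. They are 38 of the 28775 promoter rows in an ATAC-seq count table, which holds for each promoter and library the number of fragments released by the Tn5 transposase, an enzyme that inserts preferentially into open chromatin. In gene order the members fall into 3 groups, namely a distal group of 3 (ZNF557, ZNF358, ZNF414), a middle group of 12 (ZNF558 to ZNF846) and a proximal group of 23 (ZNF653 to ZNF791).

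The study asked how loss of MORC2, a nuclear ATPase that works with the HUSH silencing complex, alters chromatin accessibility. It compared 2 MORC2 knockout (KO) libraries with 2 wild-type (WT) libraries of HEK293T cells, a human embryonic kidney line that expresses SV40 large T antigen. Each KO library came from a bulk pool of cells electroporated with Cas9 protein and 1 guide RNA, so a pool may hold cells with different edits, and guide and replicate cannot be told apart. The WT libraries are unedited cells of the line, and whether they were also electroporated is not given in the sources used here.

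Most zinc finger genes of chromosome 19 encode DNA-binding repressors with a KRAB domain, which recruits the co-repressor TRIM28 and, through it, the methyltransferase SETDB1 to transposable elements and other targets. The genes arose by tandem duplication, so that neighbours often have similar promoters and coding sequences. The bodies of many of them are themselves covered by heterochromatin that the HUSH complex and MORC2 help to maintain, while their promoters usually lie in CpG-rich open chromatin.

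RefSeq promoter sequences on GRCh38.p14, running from 250 bases before to 50 after the start of the gene, matched 36 of the 38 members. ZNF559 and ZNF763 had no entry. The median GC content was 60.7% in the members and 61.7% in the 19083 tested promoters with a sequence. The letters of 8 short motifs were searched on both strands, and each share below counts promoters with at least 1 match. A match is a description of the letters and does not show binding.

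The proximal group carried a shared arrangement of motifs. CCAAT, the core letters of the NFY motif, occurred in 24 of 36 members (66.7%) against 35.985% of all promoters. It was found in 20 of 22 proximal, 4 of 11 middle and 0 of 3 distal promoters. GGGCGG, the core of the SP1 motif, occurred in 30 members (83.3%) against 54.3%. In 13 members, all of them proximal, GGGCGG was followed after exactly 15 bases by CCAAT, an arrangement held by 64 of all 19083 promoters (0.335%). Those 64 include the 13 members. The 15-base spacing was chosen after the sequences had been seen. The 3 promoters below are shown because they are among the most alike of the list and yet differ in accessibility. They are the 200 bases before the start of chr19:11848526-11848725 (ZNF439), chr19:11887582-11887781 (ZNF69) and chr19:11924907-11925106 (ZNF700), all on the plus strand, with capitals marking GGGCGG and CCAAT.
ZNF439: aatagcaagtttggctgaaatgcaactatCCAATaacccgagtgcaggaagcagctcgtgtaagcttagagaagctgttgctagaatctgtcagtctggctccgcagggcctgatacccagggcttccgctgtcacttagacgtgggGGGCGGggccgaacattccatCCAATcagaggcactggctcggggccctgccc
ZNF69: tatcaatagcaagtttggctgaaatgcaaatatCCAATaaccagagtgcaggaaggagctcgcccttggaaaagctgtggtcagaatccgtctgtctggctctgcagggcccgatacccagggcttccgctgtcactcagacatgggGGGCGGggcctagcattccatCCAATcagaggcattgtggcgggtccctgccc
ZNF700: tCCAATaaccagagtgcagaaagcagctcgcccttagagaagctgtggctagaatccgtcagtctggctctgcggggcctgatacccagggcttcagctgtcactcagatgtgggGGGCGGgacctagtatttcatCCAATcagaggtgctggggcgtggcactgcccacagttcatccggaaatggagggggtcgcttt

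Over their 300-base windows ZNF439 and ZNF69 were 86.3% identical in a global alignment, the highest value of 630 member pairs, whose median was 54.0%. ZNF69 and ZNF700 were 77.7% identical, and ZNF439 and ZNF700 76.3%. The next 4 promoters carry the same pair of motifs and were all well covered. They are the 150 bases before the start of chr19:12551483-12551632 (ZNF564), chr19:12365684-12365833 (ZNF442), chr19:12333634-12333783 (ZNF563) and chr19:12441022-12441171 (ZNF443), all on the minus strand, with the same capitals.
ZNF564: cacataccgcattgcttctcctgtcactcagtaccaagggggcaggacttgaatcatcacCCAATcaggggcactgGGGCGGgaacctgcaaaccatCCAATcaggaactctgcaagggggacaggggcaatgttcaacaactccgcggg
ZNF442: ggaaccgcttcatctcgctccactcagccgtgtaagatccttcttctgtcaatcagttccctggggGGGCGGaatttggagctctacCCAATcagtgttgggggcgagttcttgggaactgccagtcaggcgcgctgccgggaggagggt
ZNF563: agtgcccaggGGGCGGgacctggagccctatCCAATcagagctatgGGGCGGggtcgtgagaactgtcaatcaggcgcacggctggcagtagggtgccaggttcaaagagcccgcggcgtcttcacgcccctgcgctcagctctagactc
ZNF443: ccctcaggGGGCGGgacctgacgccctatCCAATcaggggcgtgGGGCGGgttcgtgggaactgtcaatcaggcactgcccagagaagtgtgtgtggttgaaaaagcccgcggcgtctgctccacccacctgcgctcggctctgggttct

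The middle group also had motifs that the proximal group lacked. GGGCGG occurred in 7 of its 11 promoters with a sequence, against 21 of 22 proximal ones. TGACGTCA, the cyclic AMP response element, occurred in 5 members (13.9%) against 2.43% of all promoters, and all 5 lie in the middle group. AAGATGGCG, the core of the YY1 motif, occurred in ZNF121, ZNF561 and ZNF562 (8.33% against 2.45%). In these 3 promoters TGACGTCA was followed after 9 bases by CGCCATCTT, which is the YY1 core read on the other strand. No other promoter among the 19083 had that pair at this spacing. It was the only spacing searched for this pair, and it was likewise chosen after the sequences had been seen. The 5 sequences run from 60 bases before to 20 after the start, on the minus strand, of chr19:9435554-9435633 (ZNF266), chr19:9538626-9538705 (ZNF426), chr19:9584485-9584564 (ZNF121), chr19:9621213-9621292 (ZNF561) and chr19:9675081-9675160 (ZNF562), with capitals marking both motifs.
ZNF266: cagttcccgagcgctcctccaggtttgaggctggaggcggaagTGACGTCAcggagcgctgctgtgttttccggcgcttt
ZNF426: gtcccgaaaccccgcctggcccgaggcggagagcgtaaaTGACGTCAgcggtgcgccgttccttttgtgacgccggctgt
ZNF121: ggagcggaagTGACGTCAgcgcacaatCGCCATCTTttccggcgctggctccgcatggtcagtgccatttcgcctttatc
ZNF561: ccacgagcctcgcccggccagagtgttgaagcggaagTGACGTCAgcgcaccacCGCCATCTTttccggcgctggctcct
ZNF562: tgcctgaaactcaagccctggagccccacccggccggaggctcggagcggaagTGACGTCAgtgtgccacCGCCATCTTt

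CCGGAAG, the core of the ETS motif, occurred in 6 members (16.7%), near its share of 13.15% among all promoters. One of the 6 is ZNF558, the only member that passed the test below. Its sequence is the 150 bases before the start at chr19:8832305-8832454 on the minus strand, with capitals marking CCGGAAG.
ZNF558: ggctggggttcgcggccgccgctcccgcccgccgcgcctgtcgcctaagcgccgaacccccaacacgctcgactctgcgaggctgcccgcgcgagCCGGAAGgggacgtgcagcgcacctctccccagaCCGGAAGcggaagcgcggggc

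ZNF490 shows a CCAAT motif on the other strand, and it shares a bidirectional promoter with ZNF791, which starts 107 bases away. Its sequence is the 120 bases before the start at chr19:12610814-12610933 on the minus strand, with capitals marking ATTGG, the reverse complement of CCAAT.
ZNF490: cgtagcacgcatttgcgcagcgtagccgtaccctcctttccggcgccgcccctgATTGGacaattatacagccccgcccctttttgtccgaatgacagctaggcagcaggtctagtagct
The remaining motifs were rare in the members. GCGCATGCG (NRF1) occurred in 2 members (5.56% against 2.59%), ACTACAA (ZNF143) in 3 (8.33% against 3.07%), and CACGTG (E-box) in 0 (against 8.30%).

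**Figure D1:**
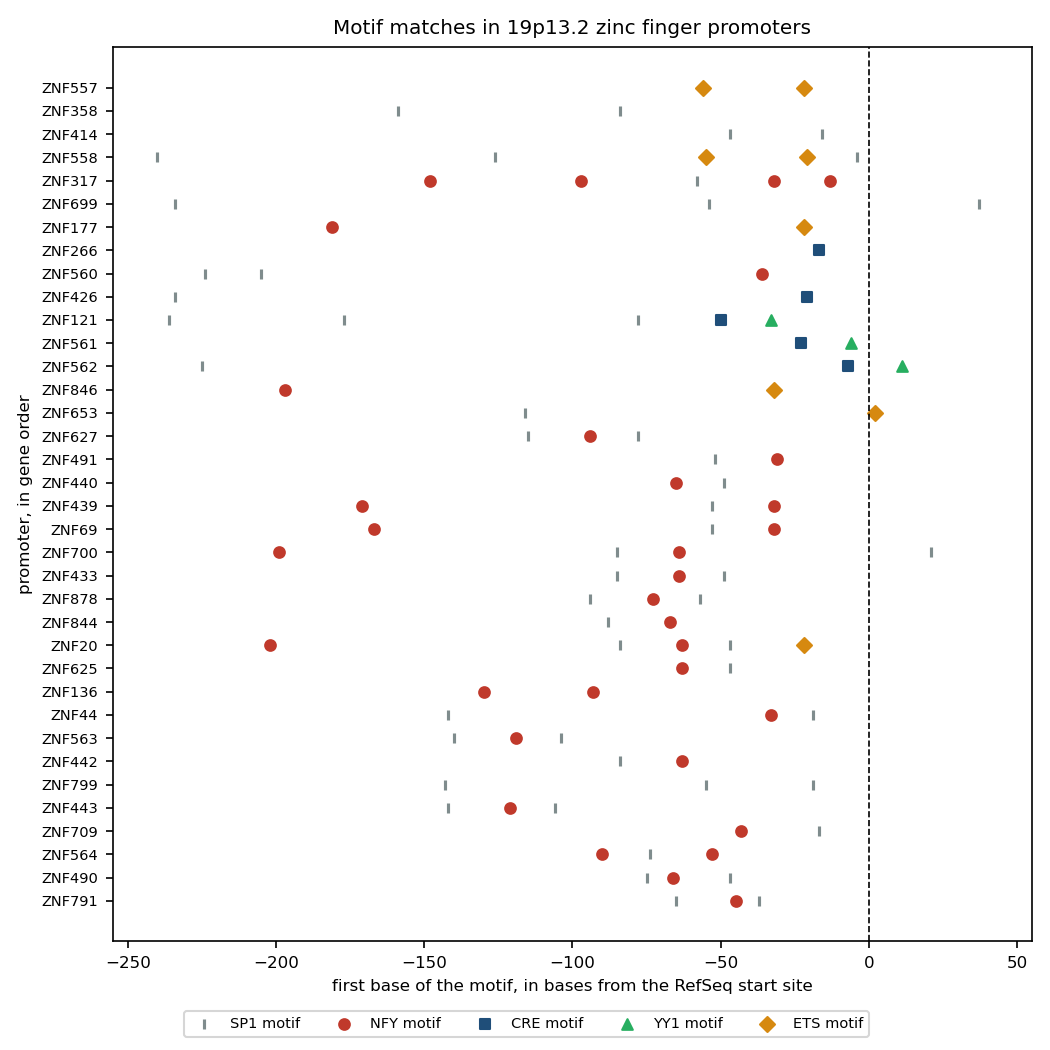
Position of motif matches in the 36 member promoters with a RefSeq sequence. The horizontal axis gives the first base of each match in bases from the start site, each line is 1 promoter in gene order, and colours mark the motif. NFY matches (circles) lie in 20 of 22 proximal promoters, while CRE and YY1 matches (squares and triangles) lie in the middle group.

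The libraries held 9435801 to 15152636 promoter fragments, of which 20.6% to 35.1% fell in mitochondrial rows. The members together took 8048 fragments in KO replicate 1, 12334 in KO replicate 2, 6772 in WT replicate 1 and 6998 in WT replicate 2. These were 0.105%, 0.102%, 0.103% and 0.114% of the nuclear counts, so WT replicate 2 was the highest and the KO libraries did not stand apart from WT replicate 1. Its 95% Wilson interval, 0.112% to 0.117%, did not overlap those of the other libraries, and these intervals cover counting error only. The promoters of VIM, LIN28B and NEFM, genes active in HEK293 cells, had 11.8 to 85.8 CPM (the count of a row scaled to the size of its library), and that of PAX2 5.86 to 7.89. The promoters of 4 genes that mark leukocytes, T cells, hepatocytes and cardiomyocytes had 1.11 to 6.85 CPM, so the PAX2 range overlapped theirs.

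All 38 members had enough fragments to be tested, and they covered a 23.7-fold range of accessibility in WT cells. Levels are CPM after scaling by the trimmed mean of M values (TMM), given as mean ± SD over the 2 libraries of a group. Every row is stated to count 2 kb around a start site, so levels are per the same length, but how much the filter on placement removed from duplicated promoters was not tested. The median WT level was 17.96 CPM, against 16.7 CPM over all tested promoters. The most accessible member was ZNF414 at 56.6 ± 1.13 CPM, followed by ZNF564 at 48.3 ± 2.12, ZNF653 at 42.1 ± 4.11, ZNF627 at 41.2 ± 4.22 and ZNF557 at 38.6 ± 4.64. The last 3 lay within 1 SD of each other.

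The lowest members were ZNF878 at 2.39 ± 0.876 CPM, ZNF844 at 2.48 ± 0.568, ZNF177 at 2.53 ± 0.494, ZNF69 at 2.64 ± 0.499 and ZNF560 at 2.69 ± 0.426, whose order the spread between replicates does not resolve. ZNF878, for example, had 31, 41, 29 and 16 fragments in KO replicates 1 and 2 and WT replicates 1 and 2, an order of libraries kept throughout. In all, 12 members lay under 10 CPM in WT cells, 4 of them in the middle and 8 in the proximal group, and these rested on 15 to 114 fragments per library. The other 26 lay at 11.3 CPM or more.

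The 3 promoters of closely similar sequence shown first differed in level. ZNF439 had 24, 43, 35 and 36 fragments, and ZNF69 had 34, 42, 22 and 27. ZNF700 had 298, 450, 207 and 205, more than any library of the other two. Their WT levels were 3.81 ± 0.249, 2.64 ± 0.499 and 22.1 ± 0.854 CPM. The 13 promoters with the 15-base pair ranged from 2.39 to 48.3 CPM with a median of 12.6, against a median of 18.9 in the other members with a sequence. Across the 36 members the number of CpG sites and the log2 WT level had a Spearman rho of 0.295, a weak relation between neighbours that share ancestry.

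**Figure D2:**
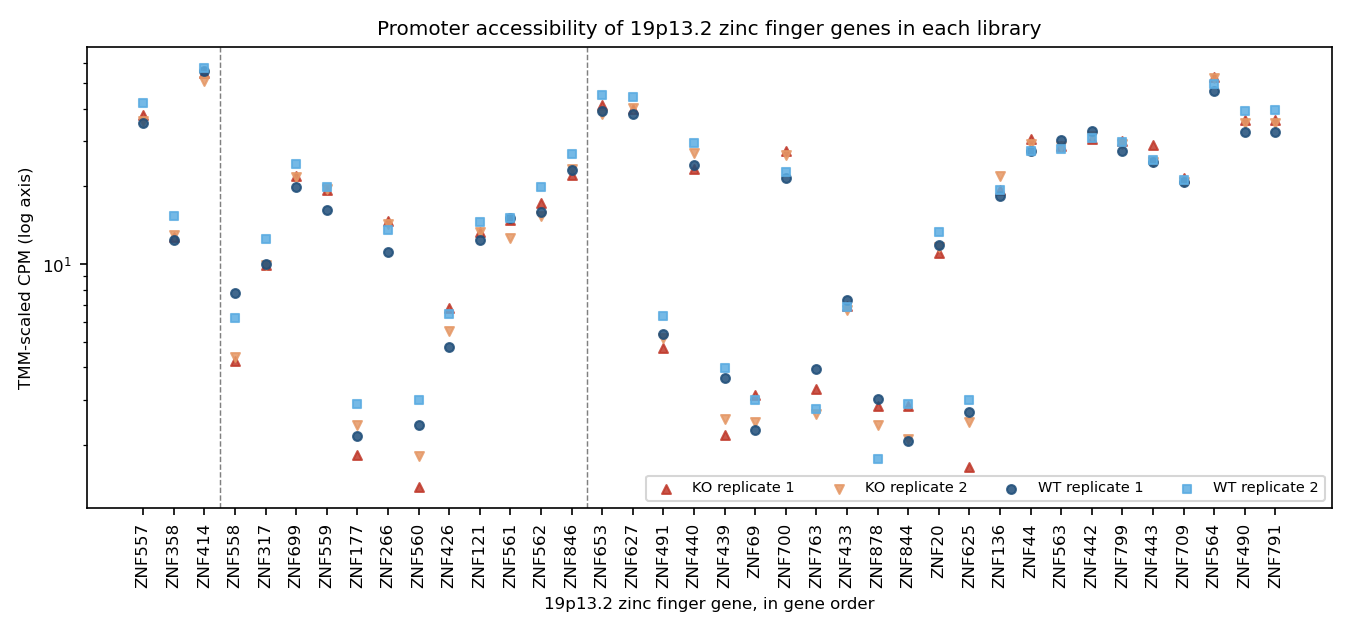
Accessibility of the 38 member promoters in gene order, as TMM-scaled CPM on a log axis, with 1 point per library. KO and WT points lie close together at most promoters, and the range from 2.39 to 56.6 CPM in WT cells is far wider than the gap between the groups.

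Only ZNF558 passed the test. Of the 38 members, 1 passed edgeR's quasi-likelihood test at an adjusted p under 0.05 (2.63%) and it was lower in KO cells, against 4.45% of the 27647 promoters tested. None of the members was called higher, against 3.45% of all promoters, and 1 was called lower, against 0.995%. At an unadjusted p under 0.05 there were 4 members (10.5%), against 20.3%. These counts were small, and no test was run of the difference between the members and the other promoters.

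ZNF558 encodes a KRAB zinc finger repressor. Its promoter had 46 and 75 fragments in KO and 75 and 56 in WT libraries, or 4.22, 4.40, 7.79 and 6.20 CPM. Both KO libraries lay below both WT libraries. The log2 ratio of KO to WT was -0.70 (SE 0.20, 95% interval -1.09 to -0.31), or 0.617-fold, and edgeR's adjusted p was 0.0211. In a bulk library a lower count cannot tell fewer cells with an open promoter from a less open promoter in every cell. The start of MBD3L1, a germ-cell gene related to methyl-CpG-binding proteins, lies 73 bases away on the opposite strand. The MBD3L1 row had 46, 73, 75 and 56 fragments, nearly the same counts, and a log2 ratio of -0.72 (edgeR adjusted p = 0.0168), so the data give 1 change and not 2.

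The ZNF558 call depended on the libraries and on the scaling. Without KO replicate 1, KO replicate 2 or WT replicate 1 the log2 ratio was -0.65, -0.73 and -0.52 and the edgeR adjusted p was 0.0922, 0.231 and 0.224. Only without WT replicate 2 did the call hold (log2 ratio -0.85, adjusted p = 0.0419). In each of these fits the lone library of a group is assumed to vary like the libraries of the other group. DESeq2 gave a similar log2 fold change of -0.69 with an adjusted p of 0.873. The fold changes of all promoters moved with abundance, with medians from -0.29 in the lowest of 10 abundance classes to 0.083 in the highest. ZNF558 lay in a class with a median of -0.18, and with offsets that remove this trend its log2 fold change was -0.52 (edgeR adjusted p = 0.174). Scaled by the total count only it was -0.55 (edgeR adjusted p = 0.455).

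The 7 members with the next smallest p did not pass. The first of them was ZNF700, at 27.3 and 26.4 CPM in KO and 21.5 and 22.7 in WT libraries. Its log2 ratio was 0.28 (SE 0.098, 95% interval 0.085 to 0.47, edgeR adjusted p = 0.0755), and its groups did not overlap. ZNF439 had 2.20 and 2.52 CPM in KO and 3.64 and 3.99 in WT cells, again without overlap, with a log2 ratio of -0.67 (SE 0.26, edgeR adjusted p = 0.116). The promoter with the sequence closest to it, ZNF69, overlapped between the groups, at 2.79 ± 0.464 CPM in KO and 2.64 ± 0.499 in WT cells.

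ZNF560 had the fewest fragments of the list, 15 and 31 in KO and 23 and 27 in WT libraries. Its CPM values of 1.38 and 1.82 lay below 2.39 and 2.99, for a log2 ratio of -0.70 (SE 0.31, edgeR adjusted p = 0.169). The exact Poisson interval of its 15 fragments, 8.40 to 24.7, shows how little a single library fixes at this depth. ZNF625 had 18, 42, 26 and 27 fragments and a log2 ratio of -0.41 (SE 0.29, edgeR adjusted p = 0.425), which was -0.19 without KO replicate 1, -0.77 without KO replicate 2 and -0.13 with loess offsets. Its row holds the same counts as that of the readthrough gene ZNF625-ZNF20, whose start is 3 bases away.

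The 3 others were better covered. ZNF266, one of the promoters with TGACGTCA, had 14.8 and 14.4 CPM in KO and 11.2 and 13.6 in WT cells, with a log2 ratio of 0.23 (SE 0.13, edgeR adjusted p = 0.299), which was 0.093 without WT replicate 1 and 0.37 without WT replicate 2. ZNF564 had 52.7 and 52.6 CPM in KO and 46.8 and 49.8 in WT cells, with a log2 ratio of 0.12 (SE 0.072, edgeR adjusted p = 0.313). ZNF414 had 54.8 and 51.2 CPM in KO and 55.8 and 57.4 in WT cells, with a log2 ratio of -0.10 (SE 0.070, edgeR adjusted p = 0.419). In all 3 the groups did not overlap. The sign of ZNF414 turned under another scaling, to 0.036 with the total count only.

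The remaining 30 members had log2 fold changes between -0.22 and 0.15 and adjusted p-values from 0.434 to 0.996. Among them ZNF490 and ZNF791 had 394, 602, 313 and 354 fragments and 393, 602, 313 and 356, which is 1 measurement shared by a bidirectional promoter. ZNF426 and ZNF561 likewise share fragments with an antisense or divergent transcript, and ZNF559 with the readthrough gene ZNF559-ZNF177.

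**Figure D3:**
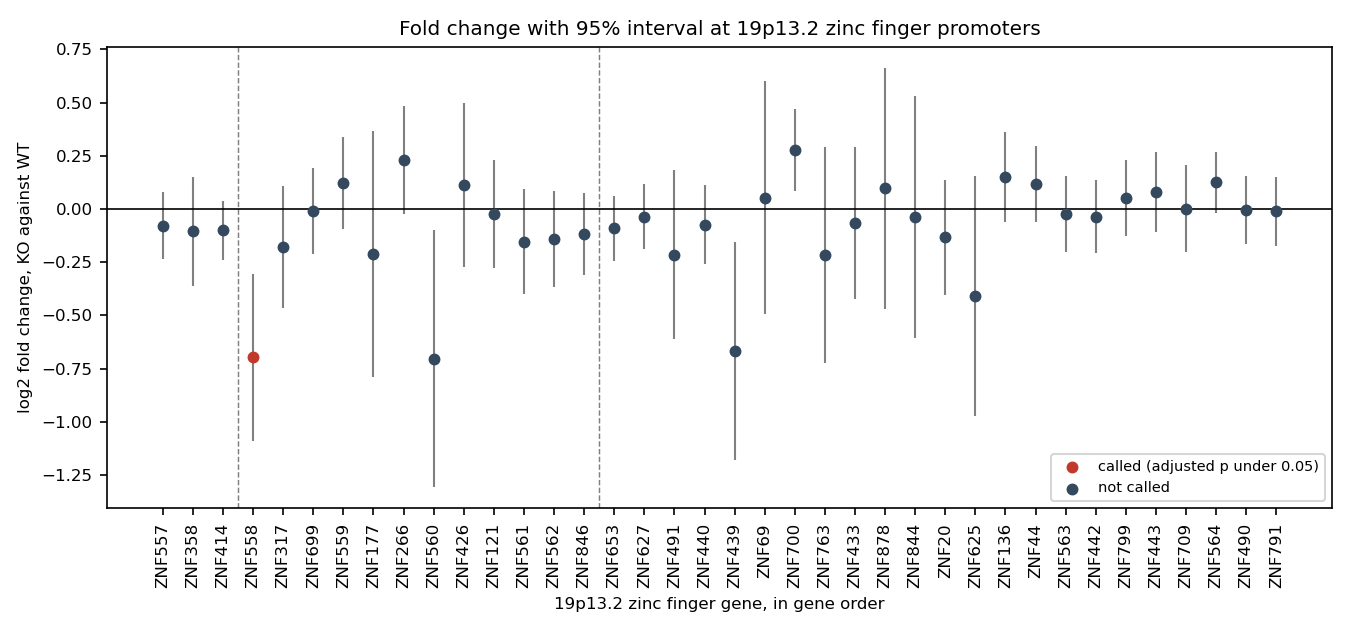
Log2 fold change of each member, KO against WT, with its 95% interval from edgeR's quasi-likelihood fit, in gene order. ZNF558 is the member called at an adjusted p under 0.05, and the widest intervals belong to the promoters under 10 CPM.

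The 26 members at 11.3 CPM or more had narrower intervals than the others. These intervals do not cover a shift shared by many members, such as the median difference of 0.20 between the WT libraries. Their log2 fold changes ran from -0.18 to 0.28 with a median of -0.023, and every 95% interval lay within -0.47 to 0.48. For the 12 less accessible members the bounds were -1.31 to 0.66. The lower bounds of ZNF558, ZNF439 and ZNF560 passed a 2-fold fall, which was thus not excluded in them. Over all 38, intervals lay within 0.3 of 0 on the log2 scale in 16, within 0.5 in 28 and within 1 in 35.

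Both KO libraries lay on one side of both WT libraries in 14 members (36.8%), against 50.6% of all tested promoters. The KO libraries were above in 5, against 25.2% of all promoters, and below in 9, against 25.4%. In 24 members the groups overlapped. The median log2 fold change was -0.037 in the members and -0.017 over all promoters, with 12 members above 0 and 26 below. By group the medians were -0.10 in the distal, -0.13 in the middle and -0.024 in the proximal promoters. The 13 with the 15-base motif pair had a median of -0.036 and the others with a sequence -0.078.

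The 18 members below the median abundance had a median log2 ratio of -0.14, where all such promoters had -0.19, and 9 (50%) had groups that did not overlap, against 47.0%. The 20 members above it had a median of -0.010 against 0.064. The SD between replicates of the median over all 38 members was 0.149, and it was not computed for these 20 alone. None of these 20 was called by edgeR, 1 had an unadjusted p under 0.05, and 5 (25%) did not overlap between the groups, against 7.19% called and 54.1% without overlap among all such promoters.

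**Figure D4:**
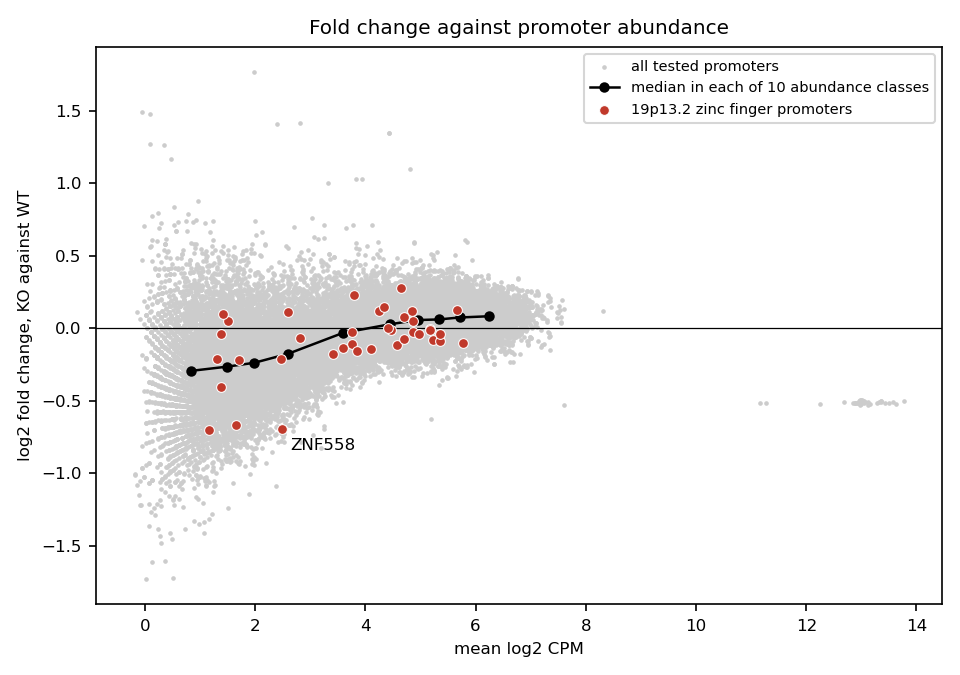
Log2 fold change, KO against WT, plotted against mean log2 CPM for all tested promoters (grey) and the members (red), with the median of each of 10 abundance classes in black. The class medians climb from -0.29 to 0.083, and the members scatter about them, with ZNF558 below its class.

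The WT libraries differed from each other at these promoters by more than the group means did, and the KO libraries by less. The median absolute difference on the log2 CPM scale was 0.228 between the WT libraries, 0.075 between the KO libraries and 0.121 between the group means. A difference between means of 2 libraries varies less than one between single libraries, so these values are not on equal terms. In 7 members the group difference exceeded both within-group differences. The same share of all promoters was not computed. WT replicate 2 was higher than WT replicate 1 in 32 of 38 members (84.2%), with a median difference of 0.20. The same median was 0.12 in the 151 other rows between the first and last member and -0.0099 over all promoters. It was 0.090 over all 1747 rows of chromosome 19 and 0.088 in the other ZNF rows of that chromosome, of which 71.1% were higher in WT replicate 2. KO replicate 2 was higher than KO replicate 1 in 17 of 38, with a median of -0.021. Against WT replicate 1 the KO mean had a member median of 0.043, and against WT replicate 2 one of -0.13, so the sign of the member median rests on which WT library it is set against. Without WT replicate 2 the median fold change was 0.037, and over the 4 fits with 1 library left out it ran from -0.14 to 0.037.

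**Figure D5:**
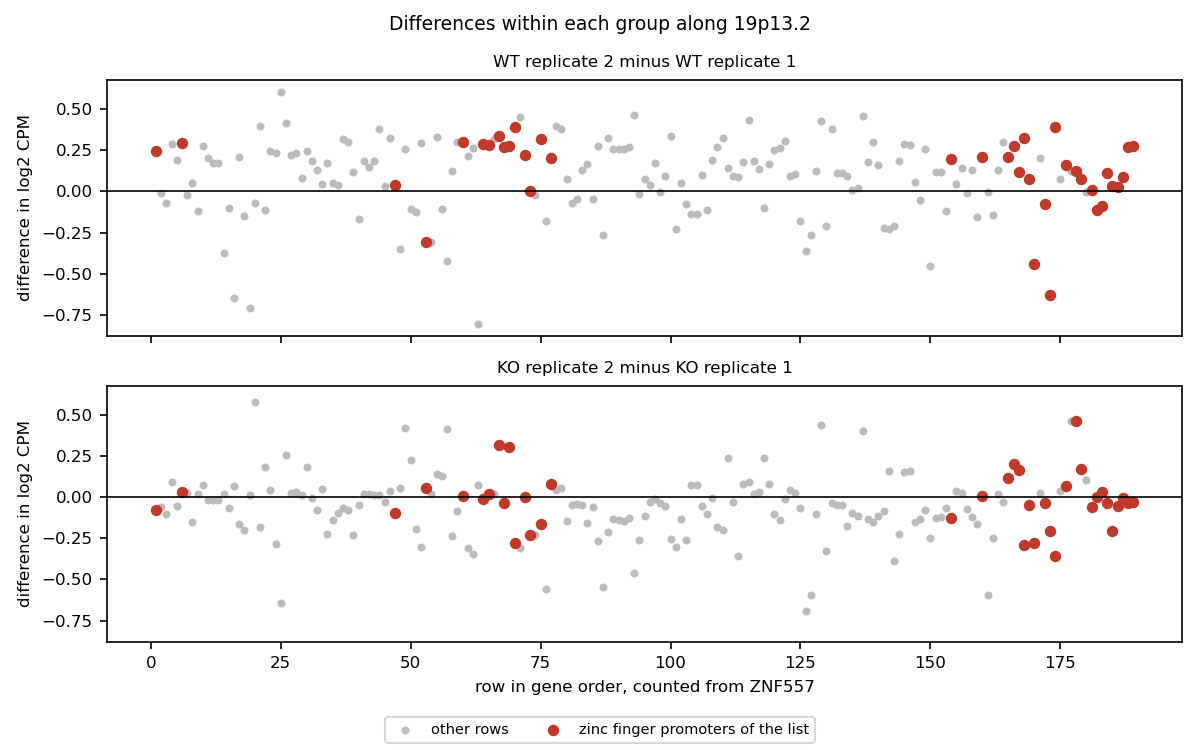
Difference in log2 CPM between the 2 libraries of each group for every row from the first to the last member, in gene order, WT above and KO below. Members are red and other rows grey. Most members lie above 0 in the WT panel (32 of 38), and they lie on both sides of 0 in the KO panel.

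Lower values were also found in the other rows of the region and in the rows of chromosome 19 without a ZNF symbol. The 151 rows between ZNF557 and ZNF791 had a median log2 ratio of -0.14, and with the total count only it was -0.0029, where all promoters had 0.12. Of the 151, 9 were called, all lower (5.96%, against 0.995% of all promoters), among them CARM1, FBXL12 and MBD3L1, the row with nearly the same counts as ZNF558. The 1460 rows of chromosome 19 without a ZNF symbol had the same median of -0.14, with 57 called lower (3.90%) and 6 higher. Other promoters with a ZNF symbol, 562 in all, had a median of 0.067, with 51 called higher (9.07%) and 6 lower. Those of them on chromosome 19 had a median of 0.037, with 6.02% called higher and 2.01% lower. Among all promoters 3.45% were called higher, and among the 38 members 0 were. The difference between these shares was not tested.

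Genes of proteins that KRAB zinc finger factors work with were read as a separate list. DNMT1, which is on it, also lies between the first and last member. Of 24 promoters of co-repressor genes (TRIM28, SETDB1, the HUSH subunits and their partners), 3 were called and all 3 were higher in KO cells (12.5%, against 3.45% of all promoters and 6.63% of those at or above the median abundance). The median WT level of the list was 37.8 CPM, and the difference between these shares was not tested. TASOR, which encodes a HUSH core subunit, had 441 and 678 fragments in KO and 285 and 267 in WT libraries, a log2 ratio of 0.44 (SE 0.084, edgeR adjusted p = 0.000124). MORC2 itself had 403 and 639 against 247 and 267, a log2 ratio of 0.43 (edgeR adjusted p = 0.000279), but promoter fragments do not check the edit. PPHLN1, which encodes the HUSH subunit periphilin, had 410 and 702 against 340 and 278, a log2 ratio of 0.26 (edgeR adjusted p = 0.0394). Without KO replicate 2 MORC2 kept a log2 ratio of 0.43 but not its call (adjusted p = 0.0837), while PPHLN1 had 0.19 (adjusted p = 0.542), and without WT replicate 2 PPHLN1 had 0.17 (adjusted p = 0.421). DESeq2 gave log2 ratios of 0.44, 0.44 and 0.26 for TASOR, MORC2 and PPHLN1 and called none of them (adjusted p-values 0.278, 0.363 and 0.959).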

How the data were processed

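ATAC-seq libraries were made from 2 MORC2 KO pools and 2 WT replicates of HEK293T cells. The authors used Trim Galore for trimming and bowtie2 for alignment to the CHM13 assembly. They kept properly paired reads of high mapping quality and removed duplicates with Picard. The deposited values are raw fragment counts per promoter and library, with replicates not pooled. The study defines a promoter as the 2 kb window around the start site and counts fragments by their midpoint in its windows, without stating whether the midpoint was also used for the promoter counts. A deposited peak list was not used, because no annotation of its assembly was at hand.

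Gene IDs were matched to RefSeq symbols for 28763 of 28775 rows, and gene order and promoter sequences come from RefSeq GRCh38.p14. Counts were analysed in R 4.3.3 with edgeR 4.0.16 and limma 3.58.1. After filterByExpr, 27647 rows were kept and 1128 removed, and libraries were scaled by TMM. A legacy quasi-likelihood fit compared KO with WT, with Benjamini-Hochberg adjustment over all tested rows and a threshold of 0.05. The smallest two-sided p of an exact permutation test on 2 and 2 libraries is 0.333. The code was tested on simulated data. Differences within groups used log2(CPM + 0.5). Alignments used Biopython 1.88.

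Alternatives were DESeq2 1.42.0, other scalings, filters and fits, a replicate block and leaving out each library. Replicate libraries differed beyond counting noise (chi-square per degree of freedom 1.20 for KO and 1.32 for WT), so each counted as 1 replicate. The edgeR p-values and intervals rest on a spread between libraries that is pooled over promoters of similar abundance. They therefore do not measure the spread at each promoter alone. The replicate numbers did not pair the samples, as the correlation of same-numbered deviations was -0.00027. Fold changes are given for called members and for those with the next smallest p up to 8, and for called co-repressor promoters. Members, lists and tests were chosen with earlier results of these data known.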

Additional observations from a re-analysis of the deposited data

How the results depend on the processing

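With 2 libraries per group and 15 to 114 fragments per library at the 12 least accessible members, only large changes could be called there. The number of members called was 1, and it was 0 with the total count only (3 at an unadjusted p under 0.05), 0 with loess offsets (3), 0 with the DESeq2 Wald test (1) and 0 at an adjusted p under 0.01 (4 in that fit). It was 2 at an adjusted p under 0.1, ZNF558 and ZNF700. With 1 library left out it ran from 0 to 1, and it was 1 only without WT replicate 2. The co-repressor list had 3 calls, 0 with the total count only (5 at an unadjusted p under 0.05), 0 with DESeq2 (3), and 1 to 4 with 1 library left out, the lowest without KO replicate 2. An unadjusted p under 0.05 was found for 2949 of the 27647 promoters with the total count only, 3597 with loess offsets and 1426 with DESeq2. It was found for 5626 (20.3%) in the fit reported above. Over all promoters 1229 were called, against 7 with DESeq2, 20 with the total count only, 388 with loess offsets, 787 at a mean count of at least 50 and 765 with a replicate block. With 1 library left out this count, the base of the shares given for all promoters, ran from 41 without KO replicate 2 to 1637 without WT replicate 1, with 230 without WT replicate 2.

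Over all promoters, the total count moved the median log2 ratio from -0.017 to 0.12 and that of the members to 0.098. That count includes the mitochondrial rows, which held 20.6% of KO replicate 2 and 31.8% to 35.1% of the other libraries. Their part in the shift was not tested. ZNF414 reversed to 0.036 under the total count, and the median of the other rows of the region was -0.0029. With 1 library left out that regional median ran from -0.196 to -0.076. The cause was not tested. With the replicate block 1 member was called, ZNF558 (log2 fold change -0.68, edgeR adjusted p = 0.0282), the member median was -0.039, and 2 co-repressor promoters were called, without PPHLN1 (adjusted p = 0.0714). Since the numbers pair no samples, this says nothing of a weaker effect.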

Other observations

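The arrangement of GGGCGG, 15 bases and CCAAT was found in 64 of the 19083 promoters with a sequence, of which 36 had a ZNF symbol and 29 lay on chromosome 19. The 13 members that carry it are ZNF627, ZNF491, ZNF439, ZNF69, ZNF700, ZNF433, ZNF878, ZNF844, ZNF20, ZNF563, ZNF442, ZNF443 and ZNF564. Since the spacing was picked from these sequences, the counts are a description.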
